A study of Mus musculus with 15 samples.

Results

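The *Rab* genes encode small GTPases that mark the membranes of the cell, and the 57 genes of the RNA-seq table named *Rab* followed by a number, with or without a letter, were examined among its 23235 genes. The rule used names only and no measured value. RNA-seq was performed on cortex of adult male mice in 4 groups: WT C57BL/6J at Zt +6 (3 mice), *Snord116del* at Zt +6 (2 mice), WT at Zt +16 (2 mice) and *Snord116del* at Zt +16 (2 mice), where Zt is the time in hours after lights on, so that Zt +6 falls in the light and Zt +16 in the dark. The *Snord116del* mice, B6(Cg)-Snord116tm1.1Uta/J, carried the deletion of the *Snord116* snoRNA cluster on the paternal chromosome only, had it in every cell, and were bred with their WT littermates from heterozygous fathers. Chromatin isolation by RNA purification (ChIRP), which captures an RNA with the DNA bound to it by biotinylated oligos, gave 5 peak lists from adult brain: *116HG*, the long non-coding RNA spliced from the *Snord116* transcript, in WT brain (replicates 1 and 2) and in *Snord116del* brain, and non-specific control (NSC) oligos in WT and in *Snord116del* brain. The last 3 are the control lists. The deposited RNA table holds 1 value per group and gene, in FPKM (fragments scaled by transcript length and by library size), and no value per mouse, so that no difference given here has a replicate error or a test.

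A Rab protein switches between a GDP-bound form held in the cytosol and a GTP-bound form on a membrane. Guanine nucleotide exchange factors load GTP, GTPase activating proteins end the active state, a geranylgeranyl group added with the help of Rab escort proteins anchors the protein, and GDP dissociation inhibitors take it off the membrane. On the membrane, the GTP-bound Rab recruits effectors such as tethers, motors and adaptors. In neurons the Rab3 proteins sit on synaptic vesicles, Rab5 on early endosomes, Rab7 on late endosomes, Rab11 on recycling endosomes, and Rab1, Rab2 and Rab6 serve the endoplasmic reticulum and Golgi.

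The labels could be checked only in part. *Snord116* was listed at 0 FPKM in all 4 groups, which checks no label, while *Ipw*, a gene next to the deletion on the same transcript, was 21.6, 3.40, 3.17 and 1.82 FPKM in WT and *Snord116del* at Zt +6 and WT and *Snord116del* at Zt +16, the order kept for all sets of 4 values. All 7 neuron markers examined were above 1 FPKM in every group, with *Snap25*, a synaptic vesicle fusion protein, at 417 to 590 FPKM. Of all genes, 10297 averaged 1 FPKM or more over the groups. Their median log2 ratio of *Snord116del* to WT was 0.57 at Zt +6 and 0.35 at Zt +16, and their median log2 ratio of Zt +16 to Zt +6 was −0.04 in WT and −0.24 in *Snord116del*. A value for a single *Rab* gene is therefore read against these medians. All log2 ratios are of FPKM + 1, which understates the change of low genes.

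The cortex held a few abundant *Rab* transcripts and many low ones. *Rab3a*, the main Rab of synaptic vesicles (chr8:73278578-73282576, plus strand, mm9), had the highest FPKM in each group, at 138, 100, 189 and 309. *Rab6b*, a Golgi Rab of neurons, was at 56.5, 78.3, 56.3 and 87.5 FPKM, its paralogue *Rab6a* at 43.6, 71.0, 57.6 and 74.2, and *Rab2a*, which acts between endoplasmic reticulum and Golgi, at 39.3, 46.0, 50.1 and 76.3. These 4 genes held the first 4 places in every group. Places 2 to 4 changed between groups, and with no value per mouse it cannot be said whether neighbours in that order differed. The 5 highest *Rab* genes made up 48.7, 42.1, 53.9 and 54.5% of the summed *Rab* FPKM. That sum was 617, 795, 711 and 1079 FPKM, or 0.387, 0.496, 0.328 and 0.315% of the FPKM of all genes. The *Snord116del* sum was above that of WT at both times, and the share was above it at Zt +6 only. The lowest 12 *Rab* genes did not reach a mean of 1 FPKM and were left out of the counts of changes: *Rab17*, *Rab19*, *Rab20*, *Rab25*, *Rab27a*, *Rab32*, *Rab37*, *Rab38*, *Rab39*, *Rab3d*, *Rab44* and *Rab7l1*. None of the 57 was listed at 0 in any group. The other 45 had a median of 7.36, 10.7, 6.56 and 9.42 FPKM, above the 3.17, 5.63, 2.90 and 4.00 of all genes that passed the same filter.

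**Figure D1:**
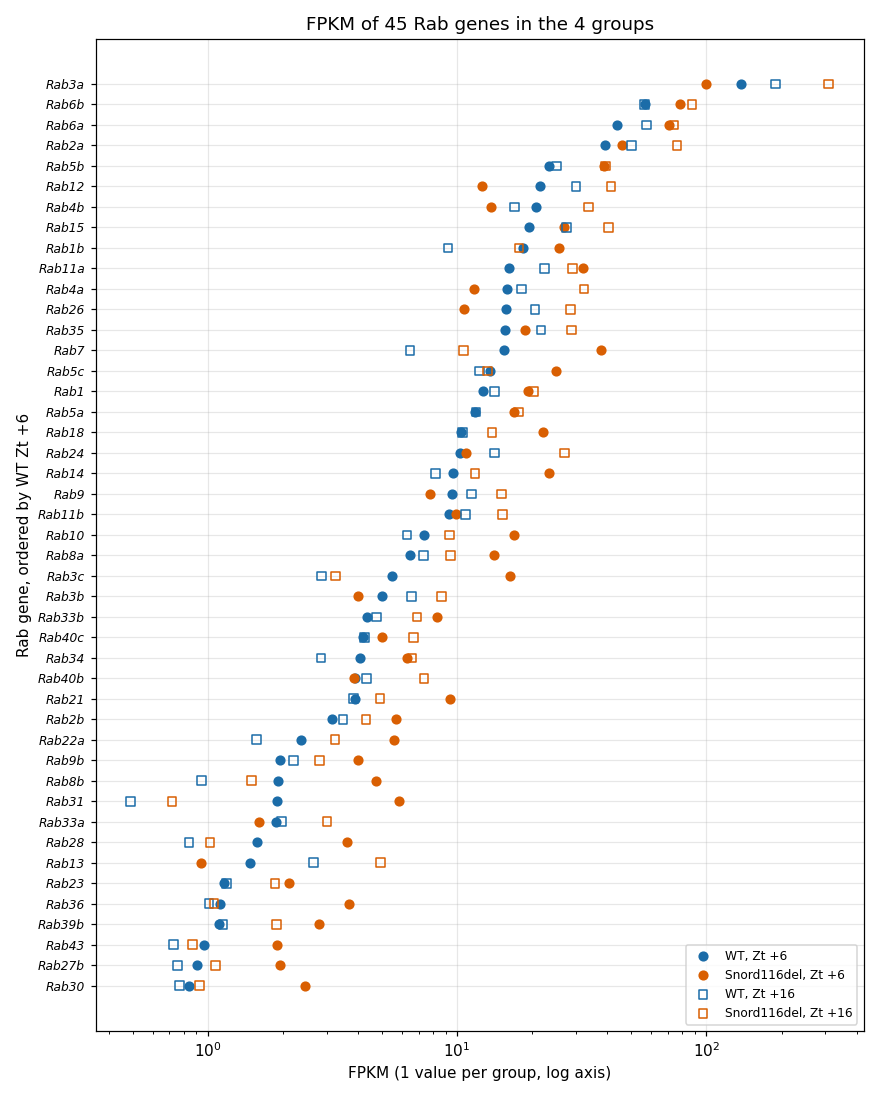
FPKM on a log axis of the 45 *Rab* genes that averaged 1 FPKM or more, ordered by WT at Zt +6. Filled circles are Zt +6, open squares Zt +16, blue WT and orange *Snord116del*, each point being the single value of a group with no error. *Rab3a* is at the top with 100 to 309 FPKM, and the points of *Rab7*, *Rab31* and *Rab3c* spread widely along the axis.

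Peaks of *116HG* at *Rab* genes came mostly from replicate 1. Within 2 kb of the gene, replicate 1 had 252 peaks at 47 of the 57 *Rab* genes (82.5%, against 59.2% of all annotated genes of the table). Among the 45 *Rab* genes past the FPKM filter the count was 43, or 95.6% against 93.6% of all genes past it, so the share was near the background. Replicate 2 had a peak at 7 *Rab* genes (12.3%, against 13.8%), WT NSC at 1 (1.75%, against 2.29%), *Snord116del* *116HG* at 0 (against 2.24%) and *Snord116del* NSC at 6 (10.5%, against 7.84%). Counted over the genes past the FPKM filter, the 3 control lists reached 1, 0 and 5 of 45 *Rab* genes, against 2.51, 2.87 and 10.6% of all such genes, and replicate 2 reached 6, against 17.4%. The replicate 1 list holds 78033 peaks, that of replicate 2 11145 and the control lists 1280 to 3648. The number of replicate 1 peaks per gene went from 0 to 23 with a median of 4. Across the 57 genes it had a Spearman's rho of 0.80 with the FPKM in WT at Zt +6 and of 0.22 with gene length, while across the 21727 annotated genes the rho with FPKM was 0.73. The genes are not independent replicates, and all counts come from 1 library.

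By place, 197 of the 252 replicate 1 peaks had their middle base in an exon of the *Rab* gene (78.2%), and 27 in an intron. Peaks often lay side by side in the same gene, so they are not independent, and no interval is given for this share. Exons made up 9.29% of the *Rab* gene spans. The exon share of replicate 1 peaks at other genes was not computed, so the 78.2% has no background. *Rab3c*, a vesicle Rab with the longest transcript among the 45 *Rab* genes past the filter, had the most peaks, 23, of which 16 lay in non-coding exon parts, 4 in coding exons and 3 in introns. *Rab6b* followed with 15 and had the highest fold over input at a *Rab* gene, 472, where the median of the 252 peaks was 61.6 and that of the whole list 55.3. *Rab5b*, which drives fusion of early endosomes (chr10:128114249-128133324, minus strand), had 8 peaks, 5 in non-coding exon parts, 2 in coding exons and 1 downstream, with folds over input of 33.8 to 204. No peak of replicate 2 or of a control list lay within 2 kb of *Rab5b*. The 10 *Rab* genes without a replicate 1 peak were *Rab33a*, *Rab43* and 8 of the 12 low genes.

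**Figure D2:**
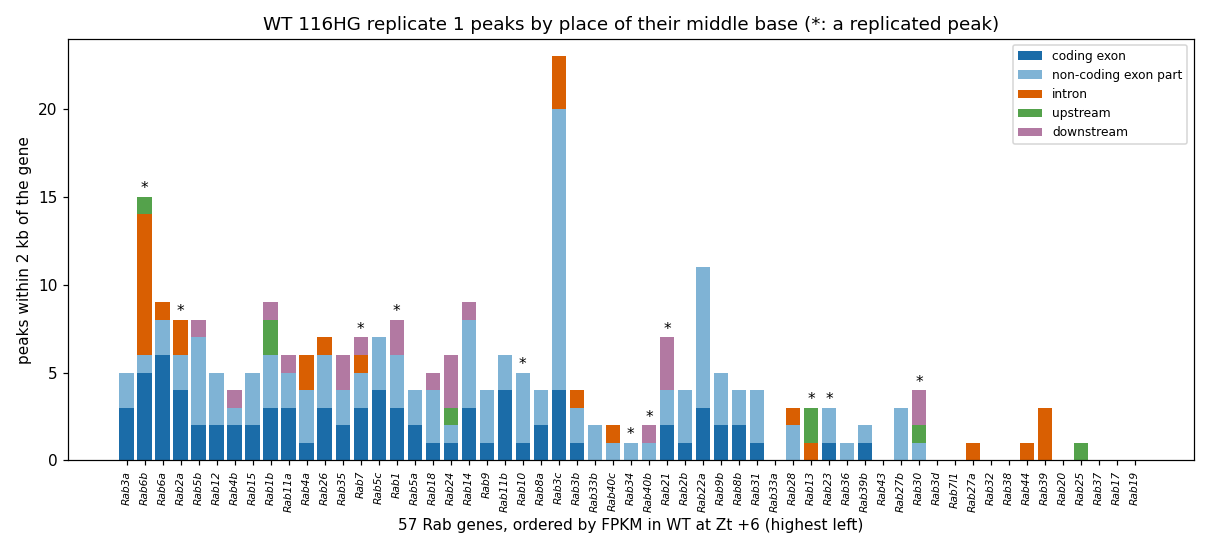
Number of WT *116HG* replicate 1 peaks within 2 kb of each of the 57 *Rab* genes (vertical axis), ordered by FPKM in WT at Zt +6 with the highest at the left and coloured by where the middle base of the peak lies. Blue shades, the exons, hold 197 of the 252 peaks, *Rab3c* has 23, and asterisks mark the 11 genes with a peak within 10 kb of one of replicate 2.

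A replicate 1 peak within 10 kb of a replicate 2 peak was present at 11 *Rab* genes: *Rab1*, *Rab10*, *Rab13*, *Rab21*, *Rab23*, *Rab2a*, *Rab30*, *Rab34*, *Rab40b*, *Rab6b* and *Rab7*. This is 19.3% of the 57, against 10.8% of annotated genes, and 24.4% of the *Rab* genes past the FPKM filter, against 17.9%. Of the 19 replicate 1 peaks concerned, 11 lay in exons, and 10 had their middle within 1 kb of the start site. Both lists overlapped directly at *Rab13* and *Rab2a* and at no other *Rab* gene. At *Rab10*, *Rab21*, *Rab30*, *Rab34*, *Rab40b* and *Rab7* the middle 32 bases of both peaks of a pair occurred once in the genome. The replicate 2 peaks near *Rab1*, *Rab23* and *Rab6b* had middles found 13, 3686 and 9439 times. Neighbouring genes shared some of the peaks: 2 of the 3 of *Rab13* lay at *Rps27*, 1 of the 2 of *Rab40b* at *Wdr45l* and 1 of the 2 of *Rab30* at *4632427E13Rik*.

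The directly overlapping pairs are shown because their sequence bears on how they are read. Both lie in introns on the plus strand of mm9, the *Rab13* pair at chr3:90023681-90023814 and the *Rab2a* pair at chr4:8524383-8524564, and each line gives the replicate 2 peak with the bases that replicate 1 also covers in capitals:
Rab13: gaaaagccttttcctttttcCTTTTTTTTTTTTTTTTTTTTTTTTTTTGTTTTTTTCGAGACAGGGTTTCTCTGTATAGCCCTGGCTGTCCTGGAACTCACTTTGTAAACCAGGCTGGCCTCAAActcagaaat
Rab2a: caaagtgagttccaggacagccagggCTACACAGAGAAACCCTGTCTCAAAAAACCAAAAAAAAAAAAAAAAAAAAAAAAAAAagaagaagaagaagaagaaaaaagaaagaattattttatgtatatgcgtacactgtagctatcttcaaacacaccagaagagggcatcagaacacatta
The *Rab13* sequence and the reverse complement of the *Rab2a* sequence were identical over 29 bases. They matched at 80 of 85 bases of an ungapped stretch. That stretch includes the run of 27 T in *Rab13*, which faces the run of 28 A in *Rab2a*, so the runs make up part of the match. The middle 32 bases of the replicate 1 and replicate 2 peaks occurred 15356 and 8132 times in the genome at *Rab13*, and 1530 and 10 times at *Rab2a*. Whether longer stretches of these peaks are found once was not tested.

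The *Snord116del* NSC list, a control, had peaks at all 4 *Rab3* paralogues and at *Rab12* and *Rab30*, each with its middle base in an intron and with folds over input of 21.0 to 28.0. The peaks of *Rab3a*, *Rab3b* and *Rab3d*, Rabs of synaptic and secretory vesicles, had their middles 380, 355 and 466 bases after the start site, whereas those of *Rab3c*, *Rab12* and *Rab30* lay over 20 kb inside the gene. The control peak of *Rab3a* reached back over the annotated start of the gene. Those of *Rab3a*, *Rab3b* and *Rab3c* overlapped WT *116HG* replicate 1 peaks, and the middle 32 bases of that of *Rab30* occurred 554 times in the genome. The single WT NSC peak had its middle in an intron of *Rab1*, and *Snord116del* *116HG* had none at a *Rab* gene. The middle 150 bases of the 3 *Rab3* peaks near start sites are printed below with the 150 bases before the start site of *Rab6b*, which lie under a replicate 1 peak with a fold over input of 461. Each is in the direction of the gene, with CG pairs in capitals (*Rab3a* chr8:73278884-73279033, *Rab3b* chr4:108551949-108552098 and *Rab6b* chr9:103014254-103014403 on the plus strand, *Rab3d* chr9:21722096-21722245 on the minus strand, mm9):
Rab3a: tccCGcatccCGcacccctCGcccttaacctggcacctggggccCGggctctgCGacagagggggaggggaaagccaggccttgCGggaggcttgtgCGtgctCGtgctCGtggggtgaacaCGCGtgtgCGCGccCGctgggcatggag
Rab3b: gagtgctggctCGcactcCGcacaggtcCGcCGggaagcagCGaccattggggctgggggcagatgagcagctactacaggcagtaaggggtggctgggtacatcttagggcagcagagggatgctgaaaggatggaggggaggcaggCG
Rab3d: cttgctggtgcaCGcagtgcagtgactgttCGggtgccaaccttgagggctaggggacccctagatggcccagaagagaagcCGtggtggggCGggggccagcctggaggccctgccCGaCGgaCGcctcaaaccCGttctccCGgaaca
Rab6b: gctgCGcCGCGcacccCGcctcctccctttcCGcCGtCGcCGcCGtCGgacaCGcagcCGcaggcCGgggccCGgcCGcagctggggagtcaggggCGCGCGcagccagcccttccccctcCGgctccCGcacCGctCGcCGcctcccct
G and C made up 71.3, 64.0, 66.7 and 81.3% of these sequences. The CG pairs, which read the same on both strands, numbered 14, 6, 9 and 23. Of 32851 RefSeq promoters (GRCm38.p6), 85.7% held a CG pair in the 150 bases before the start and 3.32% held at least 23, as *Rab6b* did. The 3 *Rab3* sequences lie after the start site, and these shares are no background for them. None of the 4 sequences overlapped an annotated exon.

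At Zt +6, *Snord116del* against WT addresses whether loss of the paternal *Snord116* locus changes transcripts of the cortex in the light. A gene was counted when FPKM + 1 differed by 1.5-fold or more and the higher group reached 1 FPKM. Of the 45 *Rab* genes, 22 were higher (48.9%, against 49.3% of all 10297 genes), 1 was lower (2.22%, against 7.62%) and 22 were not past the rule. The median log2 ratio was 0.56, against 0.57 for all genes. The *Rab* genes as a set therefore stood where the table stood. Of the 22, *Rab27b* and *Rab30* passed the filter on the mean only through their *Snord116del* Zt +6 value. The share over all genes is open to the same effect. Set to equal medians in every group, 22 *Rab* genes lay above 0 and 23 below, where the deposited values had 35 above and 10 below. The median log2 ratio was then −0.1, against −0.06 for all genes.

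The 5 largest rises were *Rab3c*, *Rab7*, *Rab31*, *Rab14* and *Rab36*. *Rab3c* was at 5.50, 16.3, 2.85 and 3.25 FPKM, a log2 ratio of 1.42 at Zt +6. *Rab7*, which brings cargo to lysosomes (chr6:87949100-87995264, minus strand), was at 15.4, 37.8, 6.46 and 10.6 FPKM, a log2 ratio of 1.24. *Rab31*, which serves transport from the Golgi to endosomes, was at 1.90, 5.87, 0.490 and 0.719 FPKM and also had 1.24. By role it is counted below with the early endosome genes. In all 3 genes the *Snord116del* Zt +6 group was the highest of the 4. *Rab14*, of Golgi to endosome transport and counted below with recycling and plasma membrane delivery, was at 9.60, 23.4, 8.18 and 11.8 FPKM. Its log2 ratio was 1.20. *Rab36*, a Golgi Rab, was at 1.12, 3.67, 1.01 and 1.06 FPKM, with 1.14. All 5 stayed above 0 under 3 rescalings, namely groups set to the same median, groups set to the same total, and the trend with transcript length taken out.

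Against these stood 10 values below 0, of which only that of *Rab12* was past the rule. *Rab12*, which sends transferrin receptor to degradation (chr17:66843852-66869057, minus strand), was at 21.5, 12.6, 30.0 and 41.4 FPKM, a log2 ratio of −0.73. *Rab4b* followed with −0.57 (20.8, 13.7, 17.0 and 33.6 FPKM), but its value is uncertain. Of the 50-base words of its longest annotated coding transcript, 80.3% are also in transcripts of *Mia1*. *Rab26*, of secretory granules, had −0.51 (15.7, 10.7, 20.5 and 28.5 FPKM). In each of these the *Snord116del* Zt +6 group was the lowest of the 4 and the *Snord116del* Zt +16 group the highest. *Rab3a* had −0.46, from 138 to 100 FPKM, and *Rab4a*, of fast recycling from early endosomes, −0.41 (15.9, 11.7, 18.1 and 32.3 FPKM). All 5 stayed below 0 under the same 3 rescalings.

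By role, where 49.3% of all genes were higher, 7.62% lower and their median log2 ratio 0.57, early endosome genes had 5 of 6 higher at Zt +6 with a median log2 ratio of 0.90, and endoplasmic reticulum and Golgi genes had 6 of 13 with a median of 0.56. Recycling and plasma membrane delivery had 5 of 11 higher, late endosome, lysosome and autophagy 3 of 6 higher and 1 lower, and the 4 *Rab* genes of other roles 1 higher. Regulated exocytosis had 2 of 5 higher, *Rab3c* and *Rab27b*, with a median of −0.26, the only median below 0. With equal medians in the groups, only early endosome genes kept a median above 0 (0.18), the other medians being −0.12 to −0.35 and, for exocytosis, −0.92. The lists hold 4 to 13 measured genes each, and no difference between them was tested.

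Astrocyte markers moved in the same direction: all 6 were past the rule at Zt +6, and their summed FPKM was 92.5, 287, 46.3 and 66.9. The endothelial sum was 6.09, 21.0, 3.38 and 4.05, with 5 of 5 measured markers past the rule, and the microglial sum 21.8, 44.9, 21.4 and 33.7, with 3 of 5. The neuronal sum was 726, 1010, 602 and 843, with 4 of 7. The oligodendrocyte sum was 445, 703, 718 and 1035, with 3 of 6. All these markers past the rule were higher in *Snord116del*, as were 49.3% of all genes at Zt +6. In these short lists the microglial, neuronal and oligodendrocyte counts were thus near the background. With equal medians the median log2 ratio was 0.63 for astrocyte and 0.47 for endothelial markers, −0.02 for microglial, −0.15 for neuronal and −0.08 for oligodendrocyte ones. No marker was at 0, and the part of cell make-up in the *Rab* values was not tested. In whole cortex, fewer cells of a type and less RNA per cell cannot be told apart.

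**Figure D3:**
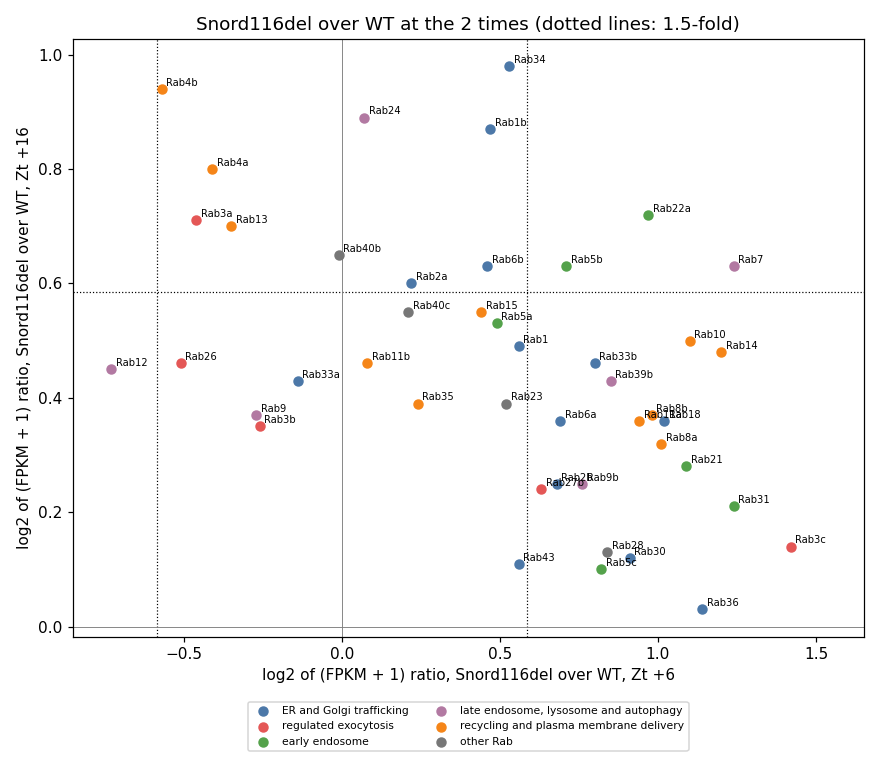
Log2 ratio of FPKM + 1, *Snord116del* over WT, at Zt +6 (horizontal axis) and Zt +16 (vertical axis) for 45 *Rab* genes, coloured by role, with dotted lines at 1.5-fold. All points lie above 0 at Zt +16 in the deposited values, and 12 did so with each of the 3 rescalings; *Rab5b*, *Rab7* and *Rab22a* are past the rule on both axes.

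At Zt +16, in the dark, *Snord116del* had 13 of 45 *Rab* genes higher than WT (28.9%, against 19.0% of all genes) and 0 lower (against 0.204%). The median log2 ratio was 0.45, against 0.35 for all genes, and the values went from 0.03 to 0.98. With all groups set to the same total, 33 of the 45 were below 0, and the median was −0.09, against −0.11 for all genes. The 5 largest were *Rab34*, *Rab4b*, *Rab24*, *Rab1b* and *Rab4a*. *Rab34*, a Golgi and cilium Rab, was at 4.07, 6.31, 2.84 and 6.58 FPKM, with a log2 ratio of 0.98 at Zt +16. *Rab24*, of autophagy, was at 10.3, 10.9, 14.1 and 26.9 FPKM, with 0.89, and *Rab1b*, of endoplasmic reticulum to Golgi transport, at 18.3, 25.7, 9.20 and 17.7, with 0.87. *Rab4b* had 0.94 and *Rab4a* 0.80. These 5 stayed above 0 under all 3 rescalings. At the other end were *Rab36* with 0.03, *Rab5c* with 0.10, *Rab43* with 0.11, *Rab30* with 0.12 and *Rab28* with 0.13, and each of these was below 0 with groups set to the same median. *Rab5c* was at 13.6, 24.9, 12.3 and 13.2 FPKM, *Rab43* at 0.963, 1.90, 0.729 and 0.869, *Rab30* at 0.837, 2.45, 0.769 and 0.925, and *Rab28* at 1.57, 3.60, 0.840 and 1.02. By role, 4 endoplasmic reticulum and Golgi genes were higher, 3 of recycling, 2 of early endosomes, 2 of late endosomes, 1 of exocytosis and 1 other.

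Both times counted *Rab5b*, *Rab7* and *Rab22a* as higher, and no gene was past the rule in opposite directions. *Rab5b* was at 23.4, 38.9, 25.1 and 39.3 FPKM, with log2 ratios of 0.71 and 0.63. Between the times it differed by 0.09 in WT and 0.01 in *Snord116del* as deposited, but by −0.33 and −1.05 with equal totals and by 0.22 and 0.49 with equal medians. Its genotype values depended on scale too, being −0.10 at Zt +6 with equal medians and −0.01 at Zt +16 with equal totals. *Rab7* had 1.24 and 0.63 and stayed above 0 under each rescaling at both times. *Rab22a*, of early and recycling endosomes, was at 2.36, 5.57, 1.57 and 3.24 FPKM, with 0.97 and 0.72, and went to −0.17 at Zt +6 with the length trend removed. The 2 comparisons share no mice.

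Paralogues differed within *Rab3*, *Rab5*, *Rab11* and *Rab27*, the families examined. Within *Rab3*, *Rab3a* was 25.1 times *Rab3c* in WT at Zt +6 and 6.15 times in *Snord116del* at Zt +6, while at Zt +16 the ratios were 66.4 and 95.2. A ratio within a group does not depend on how groups are scaled. The trend with transcript length can still enter it, as *Rab3a* has 1556 bases and *Rab3c* 8500. At Zt +6 the log2 ratio of *Snord116del* to WT was −0.46 in *Rab3a* and 1.42 in *Rab3c* as deposited. It was −0.51 and 0.17 with the length trend removed. *Rab3b* was at 4.99, 4.01, 6.56 and 8.63 FPKM and so followed the order of *Rab3a*, while *Rab3d* was at 0.767, 0.956, 0.796 and 1.15. Within *Rab5*, *Rab5a* was at 11.8, 16.9, 11.9 and 17.6 FPKM, close to the pattern of *Rab5b*, and *Rab5c* was high in *Snord116del* at Zt +6 alone. The ratio of *Rab7* to *Rab5b* was 0.659, 0.972, 0.258 and 0.268, higher at Zt +6 in both genotypes. Of the recycling Rabs, *Rab11a* was at 16.2, 32.0, 22.4 and 29.1 FPKM and *Rab11b* at 9.28, 9.89, 10.8 and 15.2, a ratio of 1.75, 3.24, 2.07 and 1.91. *Rab27b*, of granule and exosome release, was at 0.902, 1.94, 0.756 and 1.07 FPKM, and *Rab27a* at 0.327, 0.188, 0.247 and 0.300.

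**Figure D4:**
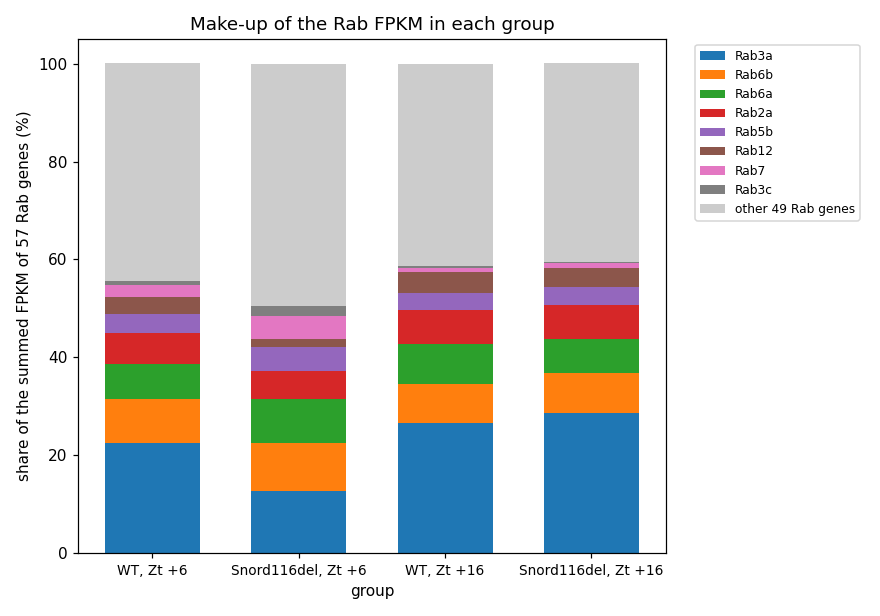
Share of the summed FPKM of the 57 *Rab* genes (percent, vertical axis) held by 8 named genes and by the other 49 in each of the 4 groups, 1 value per group. Of the 4 groups, *Snord116del* at Zt +6 is the one where *Rab3a* has its smallest share and *Rab7* and *Rab3c* have their largest.

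Transcript length went with the genotype values. Across the 45 *Rab* genes the Spearman's rho of the log2 ratio with the length of the longest annotated transcript was 0.56 at Zt +6 and −0.37 at Zt +16, against 0.63 and −0.38 over 10096 genes with a length. The 22 *Rab* genes higher at Zt +6 had a median length of 3346 bases, and the 10 below 0 of 1440.5. *Rab3c*, with the largest rise, has 8500 bases, while *Rab3a* has 1556, *Rab4a* 1419 and *Rab13* 1415. *Rab12* has 2057 bases and *Rab7* 2159. With the trend over all genes removed, *Rab3c* had 0.17, *Rab7* 0.93, *Rab31* 0.59, *Rab12* −1.0 and *Rab3a* −0.51. The part of length in these values beyond this was not tested, nor is an RNA integrity value per mouse used here.

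**Figure D5:**
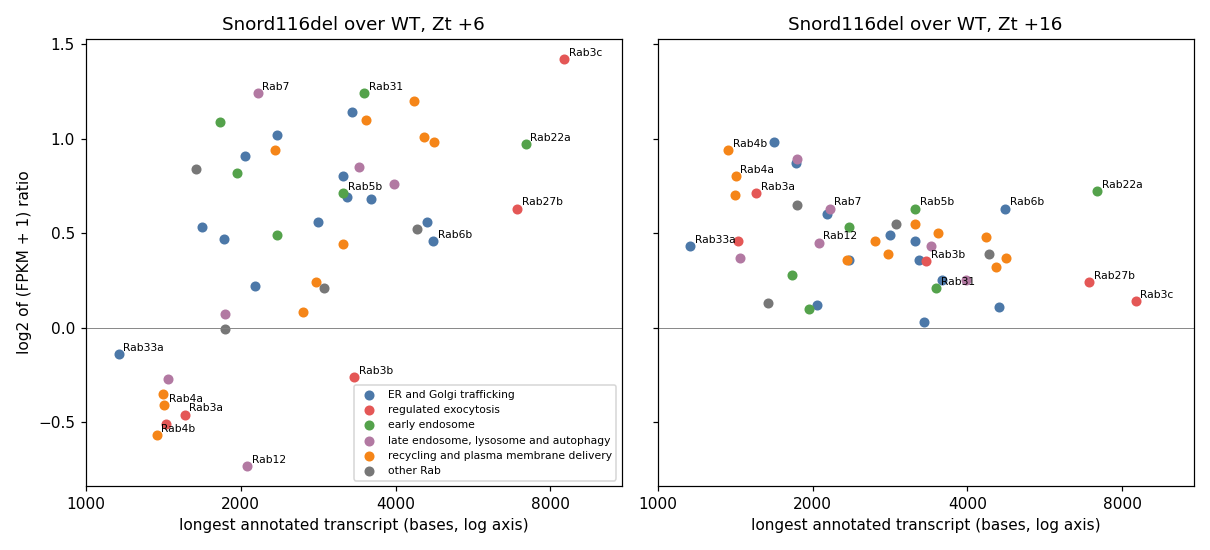
Length in bases of the longest annotated transcript (horizontal log axis) against the log2 ratio of FPKM + 1, *Snord116del* over WT, at Zt +6 (left) and Zt +16 (right) for 45 *Rab* genes coloured by role. The points climb with length at Zt +6 (rho 0.56) and descend at Zt +16 (rho −0.37).

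Between the times, WT had 0 *Rab* genes higher at Zt +16 (against 5.71% of all genes) and 4 lower (8.89%, against 10.3%). The 4 were *Rab7* with a log2 ratio of −1.14, *Rab31* with −0.96, *Rab1b* with −0.92 and *Rab3c* with −0.76, and next came *Rab8b*, of Golgi to surface transport, with −0.58 (1.91, 4.74, 0.942 and 1.5 FPKM). All stayed below 0 under the 3 rescalings. The largest values above 0 were *Rab13*, of junction and surface delivery, with 0.57 (1.47, 0.935, 2.66 and 4.93 FPKM), *Rab15*, of recycling endosomes, with 0.47, *Rab12* with 0.46, and *Rab35* and *Rab3a* with 0.45. *Rab15* was at 19.5, 26.9, 27.4 and 40.5 FPKM and *Rab35* at 15.6, 18.7, 21.7 and 28.8. These 5 stayed above 0 under each rescaling, and none was past the rule. Astrocyte markers were also lower at Zt +16 in WT, 5 of 6 past the rule, with a median log2 ratio of −0.89. The median was −0.34 for endothelial, −0.15 for microglial, −0.07 for neuronal and −0.16 for oligodendrocyte markers. *Ttr*, the leading choroid plexus transcript, was at 200, 182, 24.9 and 29.6 FPKM. It made up most of its list's sum of 203, 187, 26.4 and 31.7. *Kcnj13*, the only other marker of that list past the FPKM filter, had −0.04 in WT. The part of tissue make-up in the time values was not tested.

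In *Snord116del*, 13 *Rab* genes were higher at Zt +16 (28.9%, against 25.0%) and 14 lower (31.1%, against 39.1%). This comparison shares a group with each of the genotype comparisons, so the values are given for themselves. Of the 14, *Rab30* and *Rab43* passed the filter on the mean only through their *Snord116del* Zt +6 value. The highest were *Rab12* with 1.64, *Rab13* with 1.62, *Rab3a* with 1.61, *Rab4a* with 1.39 and *Rab26* with 1.33. The lowest were *Rab3c* with −2.03, *Rab31* with −2.0, *Rab7* with −1.75, *Rab8b* with −1.20 and *Rab28* with −1.19. None of the 10 changed sign under a rescaling, but the balance of the counts did turn, to 17 higher and 6 lower with equal medians and to 2 higher and 29 lower with equal totals. The counts over all genes moved too, from 2571 higher and 4022 lower as deposited. They were 3603 and 2733 with equal medians and 856 and 6857 with equal totals. Transcript length had a rho of −0.51 with the log2 ratios of this comparison across the *Rab* genes and of −0.62 across all genes. Without the length trend *Rab3c* was at −0.56 and *Rab8b* at −0.42, both no longer past the rule, while *Rab7* was at −1.93, *Rab28* at −1.72 and *Rab31* at −1.61. The exocytosis genes *Rab3a* and *Rab3c* were, as deposited, at 100 against 309 FPKM and at 16.3 against 3.25 FPKM at Zt +6 and Zt +16.

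For the genes that act on Rab proteins or are recruited by them, 93 names were listed, of which 91 were in the table and 74 passed the FPKM filter. At Zt +6, 48 were higher in *Snord116del* (64.9%, against 49.3% of all genes), 2 lower (2.70%, against 7.62%) and 24 not past the rule. Their median log2 ratio was 0.74, against 0.57 for all genes. It was 0.17 with equal medians and 0.02 without the length trend. Some of the 48 passed the filter on the mean only through their *Snord116del* Zt +6 value. GTPase activating proteins had 19 of 26 higher, effectors 14 of 23 higher and 1 lower, exchange factors 13 of 19 higher and 1 lower, and the prenylation and GDI genes 2 of 6 higher. The largest values were those of *Rims2* with 1.80 (4.29, 17.4, 1.72 and 2.61 FPKM) and *Rims1* with 1.70 (9.26, 32.3, 3.46 and 4.38), active zone proteins that bind Rab3. Both were highest in the group where *Rab3c* was highest and *Rab3a* lowest. At Zt +6, 49.3% of all genes were higher in that group too, and a link was not tested. The median of the effectors was 1.06 as deposited and 0.03 without the length trend. The 2 lower genes were *Rilpl2*, an effector, with −0.95 (4.48, 1.83, 5.30 and 8.04 FPKM), and *Rab3ip*, an exchange factor of Rab8, with −0.84 (9.43, 4.84, 12.2 and 19.4). At Zt +16, 9 of 74 were higher (12.2%, below the 19.0% of all genes) and 0 lower. The median was 0.31, against 0.35 for all genes, and was −0.09 with equal totals. *Tbc1d17*, a GTPase activating protein, had 0.88 and *Appl2*, an effector of Rab5, 0.74, while *Micall1* had 0.03 and *Dennd1a* 0.09.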

How the data were processed

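RNA-seq of 9 mouse cortices and ChIRP-seq of 5 brain libraries were analysed from the deposited tables. The authors aligned RNA reads with TopHat2 2.0.5 and deposited 1 Cuffdiff 2.0.2 FPKM value per gene and group; 0 columns of per-sample values were left out, and depth cannot be read from FPKM. The fold change, q-value and call columns of that table are the authors' comparisons and were not used. For ChIRP, the authors aligned reads with Bowtie2 2.0.0 to mm9, called peaks with MACS 1.4.2 in each library against WT input and filtered them; the fold over input that they deposited for each peak is a ratio, and the list of WT *116HG* replicate 2 gives positions only.

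A log2 ratio is of FPKM + 1. With 1 value per group no test was possible, so a fold rule was used (1.5-fold, 1 FPKM in the higher group, mean of at least 1 FPKM over the groups), and its share over all genes is the background. Gene symbols were looked up in the GENCODE vM1 models on NCBIM37, which is the mm9 assembly (21727 genes, 62 through a RefSeq synonym), among them all 57 *Rab* genes. Sequences were read from that assembly, and promoters are from RefSeq (GRCm38.p6). Peaks were joined to genes within 2 kb and to replicate 2 peaks within 10 kb. The fold rule and these joins were tested on simulated data, and the other steps were not. Tools were matplotlib 3.10.9, statsmodels 0.14.6, scipy 1.17.1, pandas 2.3.3, numpy 2.4.6 and Python 3.11.15.

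Members, role lists, regulator lists (prenylation and GDI, exchange, GTPase activating, effector) and markers (neuron, astrocyte, oligodendrocyte, microglia, endothelium, choroid plexus) were chosen with earlier results of these data known. Genes are named when among the 5 largest rises or falls of a comparison, past the rule in both genotype comparisons, at a replicated or control peak, in the *Rab3*, *Rab5*, *Rab7*, *Rab11* or *Rab27* families, or among the 2 largest rises or falls of the regulators. The most abundant *Rab* genes and the *Rab* genes named for their number of peaks were added after their values were seen. Alternatives covered the pseudocount, the filter, the scale of the groups, the fold, transcript length, the peak windows and each WT *116HG* replicate left out.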

Additional observations from a re-analysis of the deposited data

Results flagged for a closer look

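In 5 *Rab* genes *Snord116del* was below WT at Zt +6 and above it at Zt +16, with log2 ratios at least 1 apart. The difference between the times was 1.51 in *Rab4b* (from −0.57 to 0.94), 1.21 in *Rab4a* (from −0.41 to 0.80), 1.18 in *Rab12* (from −0.73 to 0.45), 1.16 in *Rab3a* (from −0.46 to 0.71) and 1.05 in *Rab13* (from −0.35 to 0.70). The difference was not tested, since the table has no value per mouse. Of all tested genes 10.4% did the same, against 11.1% of the *Rab* genes, so the share was near the background. These are mostly short transcripts, and the length correlation had opposite signs at the 2 times. With equal medians all 5 were further apart, by 1.12 (*Rab13*) to 1.84 (*Rab4b*). With the length trend removed only *Rab12* was still at least 1 apart (1.03), the others being 0.54 to 0.97 apart. With equal totals all 5 were 0.51 to 0.89 apart. The share of *Rab* genes below and then above WT by this rule was 13.3% with equal medians, against 13.3% of all genes. It was 2.22% against 6.03% without the length trend and 0% against 2.77% with equal totals. *Rab12* at Zt +16 was at 0.45 as deposited, within rounding of 0 with equal medians and at −0.19 with equal totals, where it was below WT at both times. In all, 10 of 45 *Rab* genes had opposite signs at the 2 times (22.2%, against 23.8% of all genes), the other 5 being *Rab26*, *Rab33a*, *Rab3b*, *Rab40b* and *Rab9*. That count was 30 with equal medians, 33 with equal totals and 28 without the length trend (66.7, 73.3 and 62.2%, against 61.4, 73.5 and 59.6% of all genes). *Rab4b* is uncertain because most of its longest annotated coding transcript is shared with *Mia1*.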

How the results depend on the processing

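No paired analysis was possible because the table gives 1 value per group, and for the same reason no mouse could be left out. Without the filter on the mean all 4 counts past the rule stayed within 1.5 times, and so they did with a pseudocount of 0.1 FPKM, except in WT between the times, where it gave 7. At Zt +6 the count of 23 became 15 with equal medians (2 higher, 13 lower), 9 at 2-fold and 8 without the length trend (6 higher, 2 lower). Over all genes, 5073 higher and 785 lower became 1548 and 2516 with equal medians. They became 2745 and 314 at 2-fold, and 1289 and 1344 without the length trend. At Zt +16 the 13 became 1 with equal medians, and 0 with equal totals, at 2-fold and without the length trend. The counts over all genes there, 1959 higher and 21 lower, became 126 and 53 with equal medians and 32 and 102 with equal totals. They became 126 and 17 at 2-fold, and 91 and 81 without the length trend. In WT between the times the 4 became 7 with equal medians (3 higher, 4 lower), 11 with equal totals (0 higher, 11 lower) and 1 at 2-fold. All genes there went from 588 higher and 1057 lower to 1107 and 976, 52 and 2984, and 48 and 239. In *Snord116del* between the times the 27 became 13 at 2-fold, and its split of 13 higher to 14 lower became 17 to 6 with equal medians and 2 to 29 with equal totals. All genes there were split 2571 to 4022, then 3603 to 2733 and 856 to 6857. Of 67 gene values past the rule, 27 were still past it in the same direction with equal medians, 43 with equal totals and 26 without the length trend. The values that reversed were, with equal medians at Zt +6, *Rab5b* (−0.095) and *Rab6a* (−0.12). With equal totals they were *Rab2a* (−0.051), *Rab5b* (−0.011) and *Rab6b* (−0.025) at Zt +16, and *Rab2a* (−0.36), *Rab33a* (−0.12), *Rab35* (−0.45), *Rab40b* (−0.14) and *Rab9* (−0.12) between the times in *Snord116del*. Without the length trend they were *Rab22a* (−0.17) and *Rab27b* (−0.49) at Zt +6, and *Rab22a* (0.64), *Rab33a* (−0.32) and *Rab43* (0.11) between the times in *Snord116del*. The cause was not tested. Past the rule as deposited, with equal medians and without the length trend alike were *Rab31* (higher) and *Rab12* (lower) at Zt +6, 0 genes at Zt +16, *Rab1b*, *Rab31* and *Rab7* (lower) in WT between the times, and 8 higher and 4 lower genes in *Snord116del* between the times. The 11 *Rab* genes with a replicated peak were 11 with the peak inside the gene and 14 with it within 10 kb, and became 2 when peaks had to overlap, 3 within 2 kb, 5 in the upper quartile of fold over input, and 6 where both middles occur once in the genome, a choice made after seeing the data. Leaving out WT *116HG* replicate 1 or 2 gave 7 and 47, since either list then stood alone.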
